A study of Mus musculus with 23 samples.

Results

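The 10 genes of IL-4 and IL-10 signalling described here were followed across 23 liver RNA-seq libraries of mice from 3 labelled genotypes on 2 diets. They were picked by gene symbol from the 24440 genes of the deposited table, namely the ligand genes Il4 and Il10, the receptor genes Il4ra, Il13ra1, Il2rg, Il10ra and Il10rb, and the signalling genes Jak1, Tyk2 and Stat6. Of these 10 genes, 9 passed the filter on low counts and were among the 12891 genes tested, and Il4 did not pass. All mice were male, came from Taconic Farms at 6 to 8 weeks of age and were on a C57Bl/6 background, and they ate normal chow or a diet with 60% of its calories from fat (HFD) for 15 weeks. WT_chow and WT_HFD are wild type, IL4KO_chow and IL4KO_HFD carry the label IL-4 knockout, and dKO_chow and dKO_HFD carry the label IL-10/IL-4 double knockout. Each group had 4 mice, except IL4KO_HFD with 3, and each library was 1 animal. The sources used here give neither the knockout alleles nor a check of the genotypes. RNA came from pieces of whole perfused liver, so each library mixes hepatocytes with the immune, bile duct and vascular cells of the organ.

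IL-4 is a cytokine of type 2 immunity that acts through IL4RA paired either with the common gamma chain IL2RG, mainly on blood cells, or with IL13RA1, which also receives IL-13. These receptors use the kinases JAK1, JAK3 and TYK2 and the transcription factor STAT6, and in liver they are known for alternative activation of macrophages and for signals to hepatocytes and fibroblasts. IL-10 is an anti-inflammatory cytokine made by macrophages and lymphocytes that binds IL10RA and the widely expressed IL10RB, which signal through JAK1 and TYK2 to STAT3.

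RefSeq promoter sequence (GRCm38.p6) was at hand for 7 of the 10 genes, Il4, Il4ra, Il13ra1, Il2rg, Jak1, Tyk2 and Stat6. The 250 bases before the start are shown for Il4ra and Il2rg, because these genes encode both chains of the type I IL-4 receptor and both were higher in dKO_chow than in WT_chow. The Il4ra window is chr7:125552021-125552270 on the plus strand, and the Il2rg window is chrX:101268256-101268505 on the minus strand. Capitals mark the octamer ATGCAAAT in Il4ra, 139 bases before the RefSeq start. They also mark CCGGAAG, a match to the ETS factor motif, in Il2rg, 17 bases before its start. GENCODE starts Il4ra earlier, at 125552120, so the octamer lies within the GENCODE gene.
Il4ra: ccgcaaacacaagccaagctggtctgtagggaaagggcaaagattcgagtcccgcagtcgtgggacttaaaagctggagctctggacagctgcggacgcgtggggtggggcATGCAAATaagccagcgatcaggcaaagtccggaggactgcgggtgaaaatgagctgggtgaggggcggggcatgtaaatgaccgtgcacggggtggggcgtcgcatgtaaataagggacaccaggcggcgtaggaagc
Il2rg: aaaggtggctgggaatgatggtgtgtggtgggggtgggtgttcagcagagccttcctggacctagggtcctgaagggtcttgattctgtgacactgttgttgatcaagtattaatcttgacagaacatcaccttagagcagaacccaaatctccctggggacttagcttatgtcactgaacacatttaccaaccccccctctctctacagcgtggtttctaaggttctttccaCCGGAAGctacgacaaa
In all, 4 motifs were searched on both strands of the 250 bases before each start. ATGCAAAT was in 1.6% and CCGGAAG in 6.91% of all 32851 promoters, and both were chosen after the member sequences had been read. The STAT spacings TTCNNNGAA and TTCNNNNGAA were in 7.02% and 5.85% of promoters. Among the member windows, only the Il4 window at chr11:53618666-53618915 held a match to either, TTCACAGGAA at 167 bases before the start. On the minus strand it lies before the outermost RefSeq start of Il4. The window of an inner Il4 start, chr11:53617339-53617588, held no match.

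Library totals were 7114459 to 30205078 counts. Those of dKO_chow (16220798 to 30205078) were all above those of WT_chow (10878999 to 12546501), IL4KO_chow (7114459 to 11179746) and IL4KO_HFD (7788330 to 8935353). Depth and genotype therefore went together in both chow comparisons with dKO. Levels are counts per 1000000 (CPM) of the adjusted library size, and differences are log2 fold changes with their standard error (SE). A gene was called at a false discovery rate (FDR, Benjamini-Hochberg adjustment over all 12891 genes of edgeR's two-sided quasi-likelihood test) below 0.05. IL4KO_HFD replicate 2 and dKO_HFD replicate 4 stood apart from their groups in immune markers, with summed levels of 10 Kupffer cell markers of 661 and 739 CPM against 317 to 383 and 316 to 421 CPM in the other libraries of their groups.

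Il4, the targeted gene of both knockouts, gave almost no reads in any library. Its counts were 0 in all libraries of WT_chow, WT_HFD and IL4KO_chow. The 3 libraries of IL4KO_HFD had 1, 0 and 1 counts, those of dKO_chow had 3, 3, 0 and 0, and those of dKO_HFD had 0, 1, 1 and 1. A pooled count of 0 allows a level of up to 0.067 CPM in WT_chow, 0.0553 CPM in WT_HFD and 0.0833 CPM in IL4KO_chow, counting error only. Its level in wild-type liver was below what this depth detects, so its counts do not check the labels. The gene lies at chr11:53602982-53618669 on the minus strand (GENCODE positions on GRCm38, the mm10 build).

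Il10 went against the label of the double knockout: it was higher, not lower, in the libraries labelled dKO. The counts of the dKO_chow libraries were 41, 67, 41 and 64, and those of the dKO_HFD libraries were 6, 8, 17 and 21. WT_chow libraries had 2, 2, 0 and 0 counts, WT_HFD libraries 0, 4, 1 and 1, IL4KO_chow libraries 2, 0, 0 and 0, and IL4KO_HFD libraries 0 each. Every dKO_chow library was above every dKO_HFD library in CPM, and every dKO_HFD library, from 0.33 to 1.64 CPM, was above every library of the other genotypes, which reached 0.308 CPM at most. Counts per gene do not show which exons were read, so the deletion itself was not tested, and dKO below stands for libraries labelled dKO.

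Pooled over the libraries, the Il10 level of dKO_chow was 25.6 times that of WT_chow (95% counting interval 9.87 to 95, from 213 and 4 counts; FDR 3.1e-05). Against IL4KO_chow, with 2 counts, the ratio was 41.3 with a 95% interval of 11.3 to 343 (FDR 3.62e-05). On HFD the ratio of dKO to WT was 6.54 (2.81 to 18.6; FDR 0.0108), and the difference from IL4KO also passed (FDR 0.0347). IL4KO_HFD held 0 counts, so that ratio has no estimate: its 95% counting interval began at 4.75, and a floor of 3 counts for the group put it at 6.05. Within the libraries labelled dKO, the level on HFD was 0.316 times that on chow (0.228 to 0.429), a log2 fold change of -1.60 (SE 0.449, FDR 0.0078). These intervals cover counting error only. Il10 passed the filter on low counts through dKO_chow, so its FDR against groups near 0 is not separate support. On HFD, the difference from WT did not pass when the deposited log2 values were used (FDR 0.0511) or after thinning to the smallest library (FDR 0.15). WT_HFD replicate 2 held 4 of the 6 WT counts, and without it the fitted log2 fold change went from 2.68 to 3.75, while without dKO_HFD replicate 4 it was 2.15. On chow, IL4KO_chow replicate 1 held both IL4KO counts, so without it that group is at 0. The call against IL4KO_HFD was lost the same ways (FDR 0.146 and 0.0701) and without dKO_HFD replicate 4 (FDR 0.0687), IL4KO_HFD replicate 1 (FDR 0.119) or IL4KO_HFD replicate 2 (FDR 0.177).

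Levels divided by exon length give the order of the genes in WT_chow. Jak1 stood at 17.7 ± 0.538 (SD, n = 4), Stat6 at 17.4 ± 0.736 and Il13ra1 at 15.4 ± 2.44 CPM per kb of exon. Their ranges over the 4 libraries overlapped, so their order is not resolved. Il4ra followed at 6.13 ± 0.832, Tyk2 at 4.39 ± 0.511, Il10rb at 2.25 ± 0.417, Il10ra at 1.37 ± 0.412 and Il2rg at 1.08 ± 0.427 CPM per kb. Of these neighbours, Il4ra and Tyk2 overlapped in range (4.89 to 6.66 and 3.84 to 5.02), as did Il10ra and Il2rg (0.777 to 1.67 and 0.569 to 1.61). Il10rb overlapped with neither Tyk2 nor Il10ra. Il10 was at 0.0664 ± 0.077 CPM per kb. The chain that receives IL-10, Il10ra, was therefore below its partner Il10rb in all 4 WT_chow libraries, and the IL-4 chain Il4ra was between Il13ra1, which was higher, and Il2rg, which was lower.

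**Figure D1:**
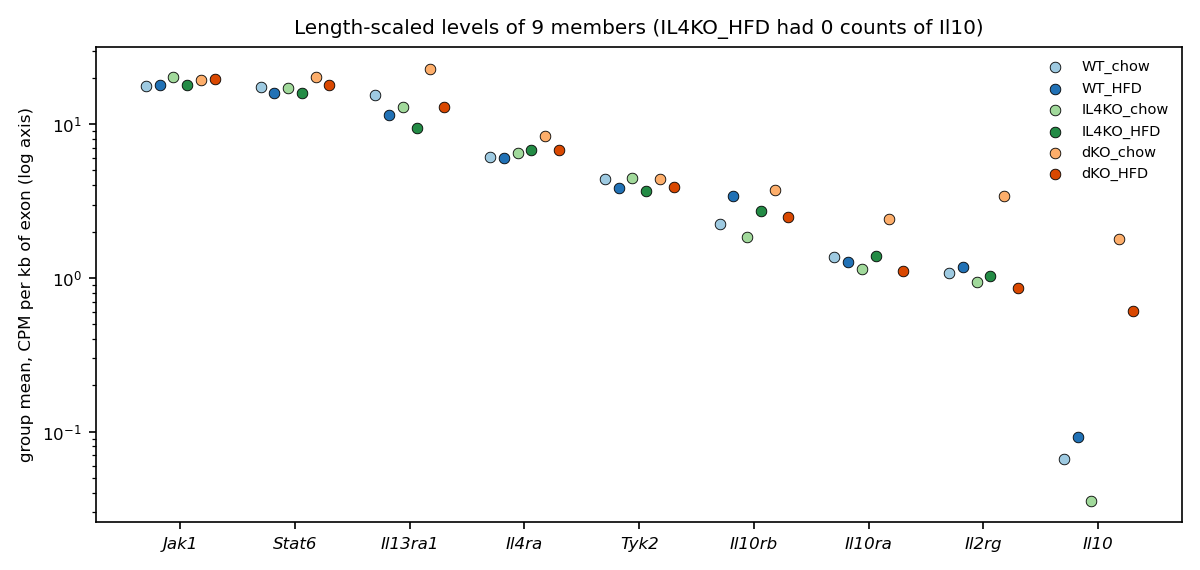
Group means of 9 genes in CPM per kb of exon on a log axis, 1 point per group, with genes ordered by their level in WT_chow. In WT_chow Jak1, Stat6 and Il13ra1 lie highest, Il10 lies lowest at 0.0664 CPM per kb, and the dKO_chow points of Il2rg (3.43) and Il10 (1.78) lie above those of the other groups.

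In dKO_chow, Il13ra1 reached 23.0 ± 0.957 CPM per kb and its range of 22 to 24.1 was above those of Stat6 (18.7 to 20.95) and Jak1 (18.4 to 20.0). Il2rg, at 3.43 ± 0.348, passed Il10ra, at 2.41 ± 0.387, and Il10 reached 1.78 ± 0.363 CPM per kb. The Il2rg and Il10ra ranges did not overlap there (2.97 to 3.81 and 1.99 to 2.76).

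Il4ra encodes the IL-4 binding chain shared by both IL-4 receptors. Its levels were 47.5, 49.4, 53.8 and 51.1 CPM in dKO_chow against 39.0, 40.0, 38.8 and 29.3 CPM in WT_chow and 38.8, 34.3, 43.8 and 39.0 CPM in IL4KO_chow. All 4 dKO_chow libraries were above all chow libraries of the other genotypes. It rose by 0.45 (SE 0.0993, FDR 0.00084) in dKO against WT on chow and by 0.38 (SE 0.1, FDR 0.00417) in dKO against IL4KO on chow. Levels on HFD were 41.2, 36.8, 37.6 and 47.5 CPM in dKO_HFD, 38.4, 35.3, 33.1 and 37.5 CPM in WT_HFD and 35.9, 45.7 and 41.2 CPM in IL4KO_HFD. The HFD groups overlapped. Within the libraries labelled dKO, HFD went with a fall by 0.31 (SE 0.0979, FDR 0.0153), a call that was lost without dKO_chow replicate 3 (FDR 0.0541), dKO_HFD replicate 2 (FDR 0.0765) or dKO_HFD replicate 3 (FDR 0.0626). The gene spans chr7:125552120-125579474 on the plus strand and overlaps Gm44876 on the other strand. The sources used here do not say whether counting used strand, so reads of such overlapping pairs cannot be told apart.

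Il2rg encodes the common gamma chain, which completes the type I IL-4 receptor and serves several other cytokines of lymphocytes. It gave the largest fold among the receptor genes. The dKO_chow libraries held 7.09, 8.28, 8.29 and 9.10 CPM against 2.41, 3.83, 1.36 and 2.73 CPM in WT_chow and 2.60, 2.35, 1.86 and 2.23 CPM in IL4KO_chow. Every dKO_chow library was above every library of all other groups, whose highest was IL4KO_HFD replicate 2 at 4.69 CPM. Il2rg was 3.15-fold higher in dKO than in WT on chow (log2 fold change 1.66, SE 0.308, FDR 0.000195) and rose by 1.84 (SE 0.322, FDR 0.000105) against IL4KO. On HFD the libraries labelled dKO held 2.03, 1.32, 2.04 and 2.81 CPM, a fall by 2.03 (SE 0.305, FDR 3.81e-05) from chow, and overlapped with WT_HFD at 1.95, 3.54, 3.50 and 2.18 CPM. These calls held in each fit with 1 library left out and in all other alternatives that were run. Il2rg spans chrX:101264378-101268255 on the minus strand and overlaps Gm20489, a protein-coding model on the same strand, so their reads may be shared.

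Il13ra1, the chain that joins IL4RA in the type II receptor for IL-4 and IL-13, was highest in dKO_chow with 89.5, 83.4, 81.6 and 87.1 CPM. WT_chow libraries held 58.2, 67.1, 45.2 and 58.7 CPM, and IL4KO_chow libraries held 45.2, 48.1, 59.1 and 38.7 CPM. The groups did not overlap, yet the rise passed against IL4KO (0.84, SE 0.266, FDR 0.0155) and the difference of 0.58 from WT (SE 0.262, FDR 0.0803) did not. On HFD, dKO libraries held 30.7, 35.9, 40.9 and 86.1 CPM, so that 1 library, dKO_HFD replicate 4, was in the range of dKO_chow. The other HFD libraries held 35.5, 47.8, 46.8 and 41.2 CPM in WT_HFD and 24.3, 28.2 and 52.5 CPM in IL4KO_HFD. Il13ra1 fell by 0.83 (SE 0.262, FDR 0.0176) on HFD in the libraries labelled dKO, which became 1.24 without dKO_HFD replicate 4 (FDR 5.12e-05). That call was lost without dKO_HFD replicate 1 (FDR 0.061), 2 (FDR 0.0686) or 3 (FDR 0.056) and in a fit of those groups alone (FDR 0.0736), and the call against IL4KO on chow was lost without IL4KO_chow replicate 4 (FDR 0.0549). Without dKO_HFD replicate 4, whose spread enters the shared fit, the difference from WT on chow passed at 0.56 (FDR 0.0139), as it did in a fit of those groups alone (0.58, FDR 0.000446). The diet difference of -0.42 in WT (FDR 0.291) passed in such a fit as well (FDR 0.0332). The gene spans chrX:36112110-36171259 on the plus strand.

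**Figure D2:**
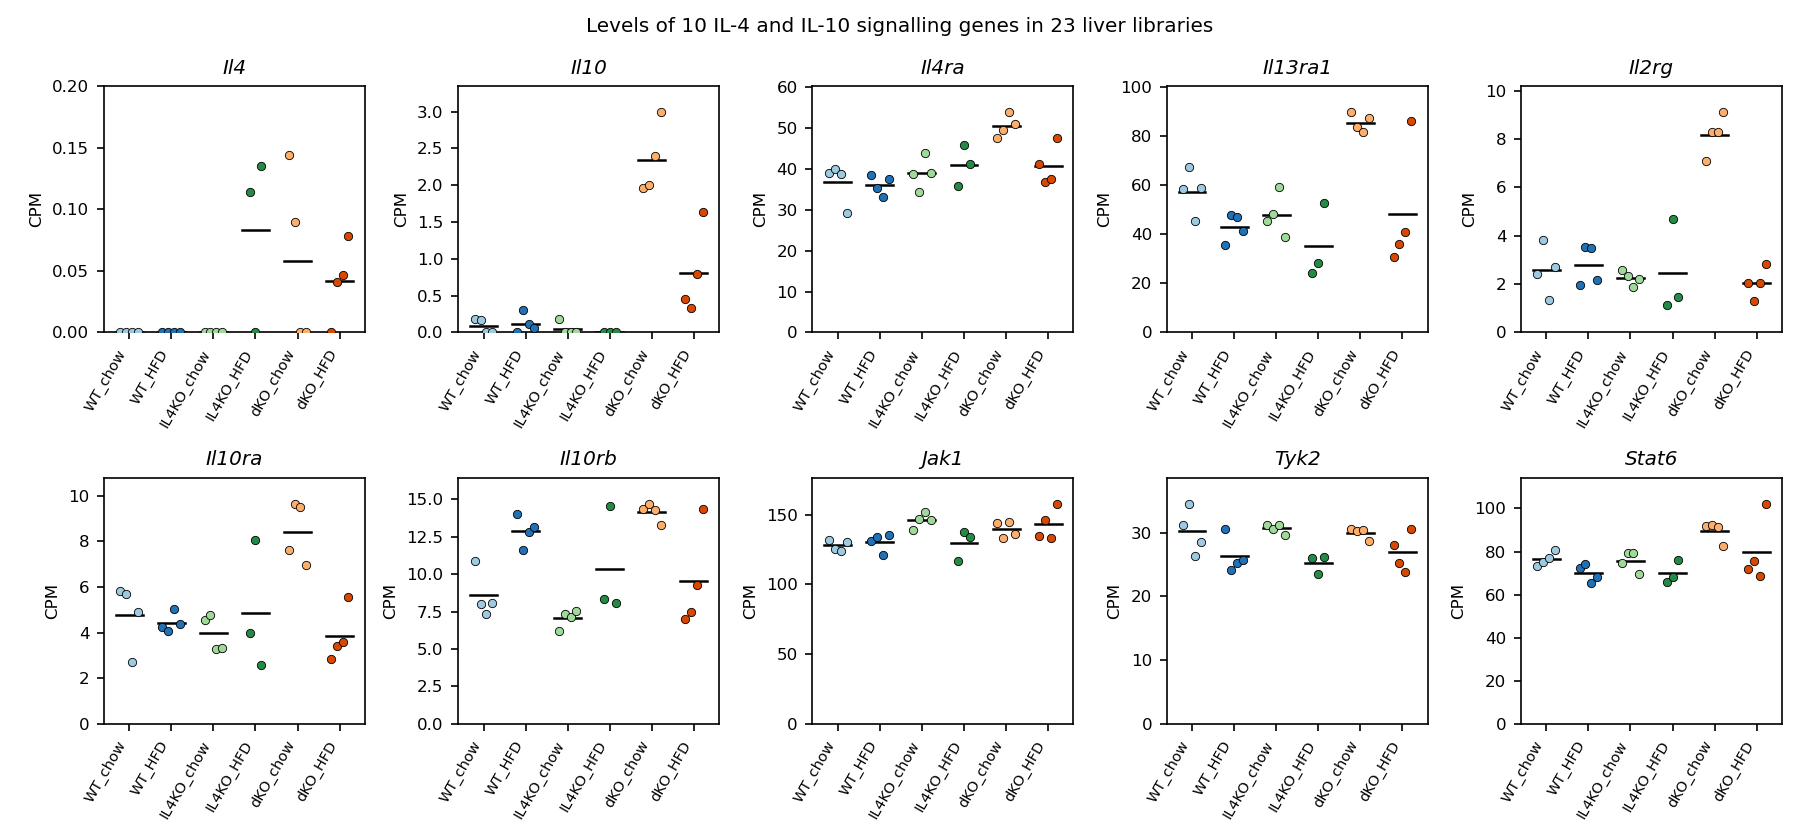
Levels of the 10 genes in CPM on linear axes, 1 point per library with a bar at the group mean, for 4 mice a group and 3 in IL4KO_HFD. The dKO_chow points of Il10, Il13ra1 and Il2rg lie above those of WT_chow and IL4KO_chow, and dKO_HFD replicate 4 is the highest dKO_HFD point in Il13ra1 (86.1 CPM), Il10rb (14.4 CPM) and Stat6 (102 CPM).

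Il10ra, the ligand-binding chain of the IL-10 receptor, is mostly made by blood cells. Its levels were 7.61, 9.65, 9.51 and 6.96 CPM in dKO_chow, 5.83, 5.71, 2.72 and 4.89 CPM in WT_chow and 4.54, 4.79, 3.29 and 3.34 CPM in IL4KO_chow. All 4 dKO_chow libraries were above the other chow libraries. Il10ra rose by 0.82 (SE 0.253, FDR 0.0116) in dKO against WT and by 1.06 (SE 0.264, FDR 0.00255) against IL4KO on chow. The first of these calls was lost without WT_chow replicate 3, the lowest of its group (FDR 0.0586). On HFD, the libraries labelled dKO held 2.86, 3.42, 3.58 and 5.55 CPM, all below dKO_chow, and Il10ra fell by 1.14 with the diet (SE 0.25, FDR 0.00113). WT_HFD held 4.24, 4.08, 5.02 and 4.36 CPM and IL4KO_HFD held 4.00, 8.05 and 2.56 CPM. In bulk liver, fewer cells of a type and less RNA per cell cannot be told apart. Il10ra spans chr9:45253837-45269149 on the minus strand and overlaps the pseudogene Gm20612 on the other strand and Mir7086 on its own strand.

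Il10rb, the second chain of the IL-10 receptor, which also serves IL-22 and type III interferons, was the member that moved with diet in WT. It was at 14.04, 11.6, 12.8 and 13.1 CPM in WT_HFD against 10.9, 7.99, 7.34 and 8.08 CPM in WT_chow, with no overlap, a rise by 0.59 (SE 0.19, FDR 0.0318). In IL4KO the levels were 8.34, 14.5 and 8.10 CPM on HFD against 6.21, 7.32, 7.15 and 7.52 CPM on chow, also without overlap, and the difference of 0.56 did not pass (SE 0.222, FDR 0.112). It was 0.24 without IL4KO_HFD replicate 2 (FDR 0.674), and it passed without IL4KO_HFD replicate 3 (0.71, FDR 0.0475) or dKO_HFD replicate 4 (0.57, FDR 0.0406). In the libraries labelled dKO the direction was the opposite, with 7, 7.5, 9.29 and 14.4 CPM on HFD against 14.4, 14.7, 14.3 and 13.3 CPM on chow. The 4th of these HFD libraries, dKO_HFD replicate 4, was within the range of dKO_chow, and Il10rb fell by 0.58 (SE 0.18, FDR 0.0131). On chow it rose by 0.72 in dKO against WT (SE 0.186, FDR 0.00314) and by 1.01 against IL4KO (SE 0.194, FDR 0.000255). The diet call in WT was lost in 6 of 23 fits with 1 library left out, namely WT_chow replicate 2 (FDR 0.087), 3 (FDR 0.0975) or 4 (FDR 0.0833) and WT_HFD replicate 1 (FDR 0.0849), 3 (FDR 0.0567) or 4 (FDR 0.0672), and that in the libraries labelled dKO without dKO_HFD replicate 1 (FDR 0.0543) or 2 (FDR 0.0674). The gene spans chr16:91406164-91425834 on the plus strand and overlaps the protein-coding model Gm21970 on the same strand.

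**Figure D3:**
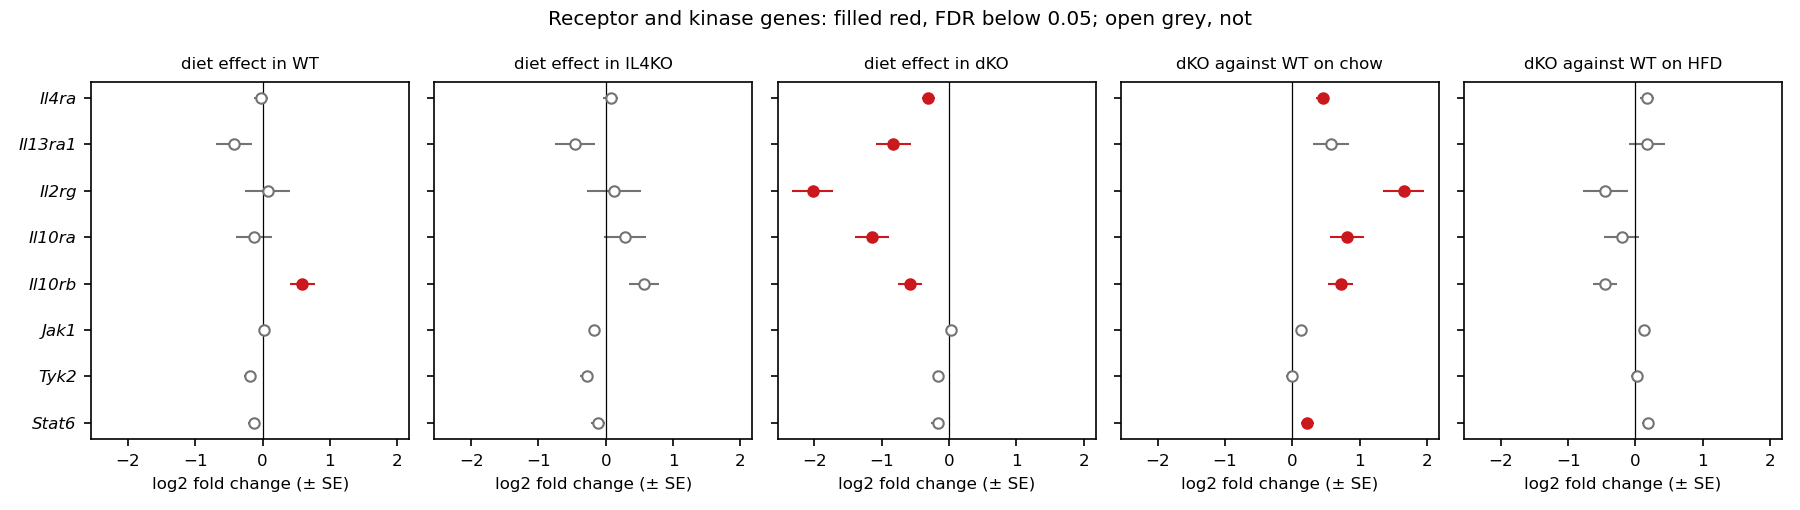
Log2 fold changes with SE of the 8 receptor, kinase and STAT genes in 5 comparisons, filled where FDR was below 0.05. The 5 receptor genes lie left of 0 in the diet effect in dKO and right of 0 in dKO against WT on chow, and Il10rb is the filled point in the diet effect in WT.

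Neither kinase gene was called in edgeR. Jak1, the kinase of both receptors, ranged from 117 CPM in IL4KO_HFD to 158 CPM in dKO_HFD over all 23 libraries, and Tyk2, the partner kinase of IL10RB and IL13RA1, from 23.5 CPM in IL4KO_HFD to 34.5 CPM in WT_chow. Each was called in 0 of 12 comparisons there. In dKO against WT on chow the difference was 0.12 for Jak1 (95% interval -0.0154 to 0.265, FDR 0.129) and -0.01 for Tyk2 (-0.191 to 0.172, FDR 0.937). The Jak1 levels of these groups did not overlap, and with the deposited log2 values the difference was 0.19 and passed (FDR 0.0276). Among the 9 pairs of groups, the largest difference of Jak1 was between IL4KO_chow, at 139, 147, 152 and 146 CPM, and WT_chow, at 132, 125, 124 and 131 CPM. These groups did not overlap, and the difference of 0.19 did not pass in edgeR (SE 0.0668, FDR 0.0727) but did in DESeq2 (FDR 0.0395) and in a fit of those groups alone (FDR 0.0495). Tyk2 had lower means on HFD in all 3 genotypes, by 0.19 in WT (FDR 0.132), 0.28 in IL4KO (FDR 0.0757) and 0.16 in dKO (FDR 0.143), none of which passed. In IL4KO its levels of 26.1, 23.5 and 26.2 CPM on HFD were below the 31.2, 30.6, 31.2 and 29.7 CPM on chow. Its diet difference passed in WT without WT_HFD replicate 1 (FDR 0.0348) and in dKO without dKO_HFD replicate 4 (FDR 0.0384). Jak1 spans chr4:101152367-101265282 on the minus strand and overlaps Raver2 on the other strand, and Tyk2 spans chr9:21104068-21131243 on the minus strand and overlaps 1700084C06Rik on the other.

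Stat6, the transcription factor of IL-4 signalling, showed a small rise on chow. Its levels were 91.8, 92.2, 91.5 and 82.4 CPM in dKO_chow, 73.2, 75.3, 77.0 and 80.8 CPM in WT_chow and 74.7, 79.5, 79.5 and 69.5 CPM in IL4KO_chow. All dKO_chow libraries were above both other chow groups. The rise was 0.23 against WT (SE 0.0923, FDR 0.0498) and 0.24 against IL4KO (SE 0.0927, FDR 0.0393). The first call lay at the threshold and was lost in 20 of 23 fits with 1 library left out, with an FDR of up to 0.142, and with DESeq2 (FDR 0.0624), RLE factors (FDR 0.0629), no filter (FDR 0.0918) and the strict filter (FDR 0.0522). The call against IL4KO was lost with no filter (FDR 0.07) and without dKO_chow replicate 1 (FDR 0.0748), 2 (FDR 0.0828) or 3 (FDR 0.0794) or IL4KO_chow replicate 1 (FDR 0.0867) or 4 (FDR 0.18). On HFD, 3 libraries labelled dKO held 72.0, 75.7 and 68.7 CPM, and dKO_HFD replicate 4 held 102 CPM, the highest Stat6 level of all libraries. The diet difference in dKO of -0.17 (FDR 0.147) passed without that library, at -0.30 (FDR 0.00088). Stat6 spans chr10:127642986-127660957 on the plus strand and overlaps Nab2 on the other strand.

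Counted by comparison, calls among the members were most frequent in both comparisons with dKO on chow and in the diet effect in dKO. In dKO against WT on chow 6 of the 9 tested members rose (Il10, Il4ra, Il2rg, Il10ra, Il10rb and Stat6) and 0 fell, where 46.3% of all tested genes were called and 24.4% rose. Groups did not overlap for 8 of the 9, against 43.9% of tested genes. Of the same 9, 7 rose in dKO against IL4KO on chow, Il13ra1 being added, where 45.2% of genes were called and 23% rose. Median log2 fold changes were 0.58 and 0.84 over the members, beside 0.02 and 0.01 over all tested genes. Both comparisons share the dKO_chow libraries, so they are not independent. Il10 passed the filter on low counts through the dKO_chow libraries, so it had to differ from groups near 0. Of the other 8 tested members, 5 and 6 rose in these comparisons.

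On HFD, Il10 was the 1 member called in dKO against WT, where 24.5% of genes were called and 12.9% were higher, and the 1 called in dKO against IL4KO, where 2.51% were called and 0.946% were higher. Il10 passed the filter on low counts through dKO_chow, which is in neither comparison. It did not pass that filter in fits of the HFD groups compared. Il10rb was 0.45 lower in dKO than in WT on HFD without passing (95% interval -0.839 to -0.0617, FDR 0.0778), and passed without dKO_HFD replicate 4 (FDR 0.00372) or without IL4KO_HFD replicate 2 (FDR 0.0353). For Il2rg the difference from WT on HFD was -0.45 (-1.14 to 0.251) and for Il10ra -0.21 (-0.765 to 0.355). The members' median was 0.13 in dKO against WT, beside 0.01 over all tested genes.

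The IL4KO libraries differed from WT in 0 members on chow, where 9.61% of genes were called, and in 0 on HFD, where 3.02% were. At an unadjusted p below 0.05 edgeR had 1 member on chow, Jak1, and 0 on HFD, while DESeq2 called 1 and 0. The 95% intervals of the log2 fold change on chow were -0.137 to 0.295 for Il4ra, -0.832 to 0.303 for Il13ra1, -0.936 to 0.569 for Il2rg, -0.833 to 0.352 for Il10ra and -0.72 to 0.146 for Il10rb.

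In the diet effect, Il10rb was the 1 member that rose in WT, where 19.5% of genes were called and 9.63% rose. In IL4KO 0 passed, with 9.08% of genes called, and edgeR had 3 at an unadjusted p below 0.05, Il10rb, Jak1 and Tyk2, while DESeq2 called 0. In the libraries labelled dKO 6 fell, Il10, Il4ra, Il13ra1, Il2rg, Il10ra and Il10rb, and 0 rose, where 40% of genes were called and 20.5% fell. Il10 passed the filter through dKO_chow, the higher group here too, and of the other 8 tested members 5 fell. Median log2 fold changes of the members were -0.03, -0.12 and -0.58 in these 3 comparisons, beside 0.00, 0.00 and -0.02 over all tested genes.

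Whether the diet effects themselves differed was tested as an interaction. Between dKO and WT it was lower in 3 members, where 25.2% of genes were called and 12.6% were lower, namely Il2rg (-2.10, SE 0.452, FDR 0.00371), Il10rb (-1.17, SE 0.262, FDR 0.00437) and Il10ra (-1.02, SE 0.367, FDR 0.0449). Between dKO and IL4KO it was lower in the same 3, where 24.4% were called and 11.7% were lower, by -2.14 (SE 0.504, FDR 0.00523), -1.14 (SE 0.285, FDR 0.00705) and -1.43 (SE 0.397, FDR 0.0132). Both use the dKO libraries. For Il4ra the difference of -0.28 from WT (FDR 0.141) and for Il13ra1 that of -0.40 (FDR 0.448) did not pass. Without dKO_HFD replicate 4 the Il13ra1 value was -0.81 and passed (FDR 0.024), and against IL4KO it went from -0.37 to -0.79 (FDR 0.0369). The Il4ra difference from IL4KO, -0.38, passed without dKO_HFD replicate 4 (FDR 0.0165), IL4KO_HFD replicate 1 (FDR 0.0354) or WT_chow replicate 4 (FDR 0.0369) and with the deposited log2 values (FDR 0.0451). The Il10ra call between dKO and WT was lost in 14 of 23 fits with 1 library left out, at an FDR of up to 0.1. All 3 calls between dKO and IL4KO were lost without IL4KO_HFD replicate 2, with values of -1.22 for Il2rg (FDR 0.119), -0.80 for Il10rb (FDR 0.0616) and -0.85 for Il10ra (FDR 0.15). The diet effects of IL4KO and WT differed in 0 members, where 0.0465% of genes were called, and at an unadjusted p below 0.05 edgeR had 0 and DESeq2 called 0.

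Immune markers moved along with the receptor genes. Of 10 Kupffer cell markers, the resident macrophages of liver, 9 rose in dKO against WT on chow, and their summed level was 939 to 1191 CPM in dKO_chow, 348 to 639 in WT_chow, 339 to 463 in IL4KO_chow and 316 to 739 in dKO_HFD. Of 8 markers of all leukocytes 7 rose, with sums of 217 to 273 CPM in dKO_chow and 142 to 182 CPM in WT_chow. Monocyte markers rose at 7 of 8 (191 to 264 against 44.6 to 83.7 CPM), neutrophil markers at 7 of 7 tested (107 to 304 against 2.63 to 19.1 CPM) and T and NK cell markers at 6 of 8 (9.14 to 14.2 against 2.90 to 5.06 CPM). Ly6g, a defining neutrophil marker, was at 0 in all WT_chow libraries. Markers of bile duct cells rose at 6 of 6 (452 to 818 against 44.4 to 52.3 CPM), and hepatocyte markers fell at 5 of 8. Basophil, mast cell and eosinophil markers, for cell types that make IL-4, were tested at 1 of 8, which was not called, and Cpa3 was at 0 in WT_chow. In this comparison 46.3% of all tested genes were called and 24.4% rose. Low markers that passed the filter through dKO_chow had to be higher there, so the marker counts are a description. The part of these cells in the member results was not tested.

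The levels of 4 receptor genes were also set against those sums. Il10ra was 0.803% ± 0.171 of the summed Kupffer cell markers in dKO_chow and 0.891% ± 0.078 in WT_chow (SD, n = 4 each), and its share in the other groups had means of 0.852% to 1.05%. Il2rg was 0.774% ± 0.0847 of that sum in dKO_chow against 0.48% ± 0.126 in WT_chow, with ranges of 0.696% to 0.881% and 0.376% to 0.647% that did not overlap, while the highest shares in WT_HFD (0.701%) and IL4KO_HFD (0.71%) were within the dKO_chow range. Il4ra went the other way, with 4.77% ± 0.353 in dKO_chow against 7.36% ± 2.58 in WT_chow and no overlap (4.50% to 5.26% and 5.45% to 11.1%). Il10rb was at 1.35% ± 0.192 against 1.67% ± 0.329, with ranges that overlapped. Relative to the leukocyte sum, Il2rg was at 3.37% ± 0.491 in dKO_chow and Il10ra at 3.43% ± 0.21, beside 1.58% ± 0.575 and 2.91% ± 0.675 in WT_chow. On that sum Il4ra was at 20.8% ± 2.05 against 22.9% ± 3.68 and Il10rb at 5.83% ± 0.61 against 5.28% ± 0.503. Il10 was 0.219% ± 0.0303 of the Kupffer cell sum in dKO_chow, 0.162% ± 0.055 in dKO_HFD and 0.0141% ± 0.0163 in WT_chow. These shares were chosen after the data had been seen and carry no test.

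**Figure D4:**
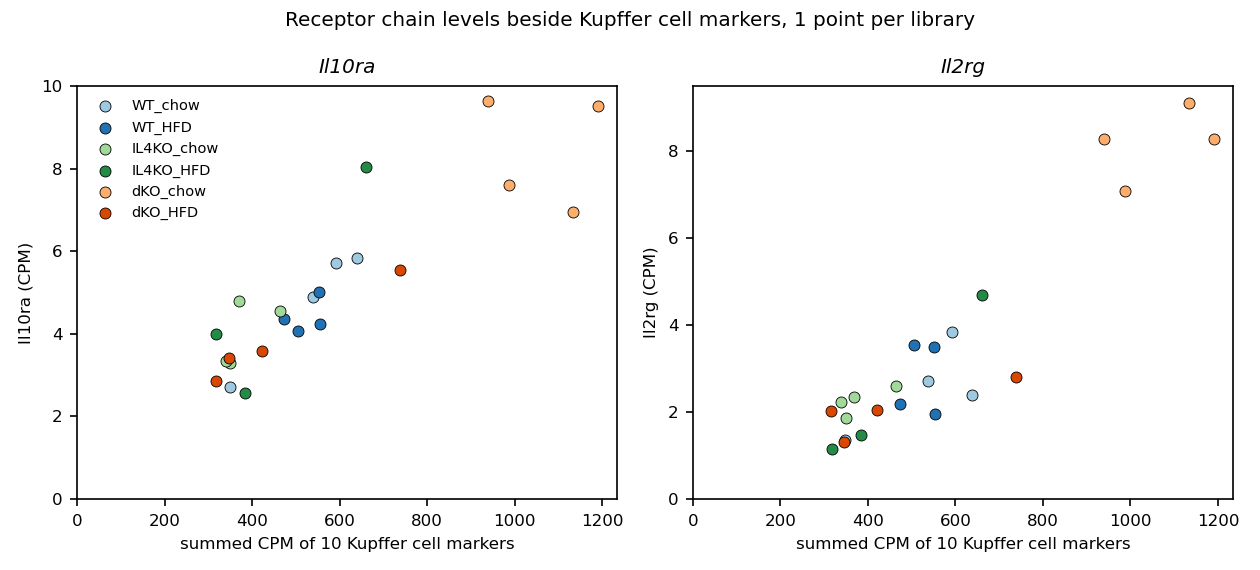
Levels of Il10ra (left) and Il2rg (right) in CPM against the summed CPM of 10 Kupffer cell markers on linear axes, 1 point per library, coloured by group. The dKO_chow libraries lie at the far right with sums of 939 to 1191 CPM, and IL4KO_HFD replicate 2 and dKO_HFD replicate 4, at 661 and 739 CPM, have the highest level of their group in both panels.

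Other genes of the pathways came in 8 lists, of which the genes that passed the filter are counted here. Low genes that passed it through dKO_chow had to be higher there, so the counts and medians are a description. They are to be read beside the shares over all tested genes, 46.3% called and 24.4% higher in dKO against WT on chow, and 40% called and 20.5% lower in the diet effect in dKO. Most cytokines were too low to test. Il13, Il9 and Il25 were at 0 in every library, Il5 reached 0.0299 CPM in 1 library, and Tnf and Il6 reached 0.875 and 0.139 CPM at most. Of the IL-4 response genes of macrophages, Retnla, Mgl2 and Ccl17 were not tested either, at 0.0927, 0.875 and 0.335 CPM at most.

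In dKO against WT on chow, 3 of 11 listed genes of type 2 cytokines and their other receptors were tested, and all 3 rose. Their median was 0.99 beside 0.02 over all genes. Il33, an alarm cytokine of epithelium and endothelium, was at 3.12 ± 0.185 against 0.889 ± 0.232 CPM (FDR 0.000185), and Crlf2, the TSLP receptor, at 10.9 ± 0.605 against 5.51 ± 0.83 CPM (FDR 0.00103). Of 6 genes of common gamma chain cytokines and partner receptors 5 rose (median 1.40), among them the cytokine genes Il7, at 1.16 ± 0.458 against 0.266 ± 0.0574 CPM, and Il15, at 1.36 ± 0.053 against 0.554 ± 0.126 CPM. Of 7 genes of the IL-10 family and class II receptors 3 rose and 0 fell (median 0.82). Il22ra1, which pairs with IL10RB in the IL-22 receptor, was at 29.9 ± 5.84 against 9.01 ± 2.98 CPM (FDR 0.000139), and Ifnlr1, its partner in the type III interferon receptor, rose by 2.96 (SE 0.483, FDR 5.18e-05).

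Of 12 other genes of JAKs, STATs and docking adaptors 7 rose and 1 fell (median 0.28). Jak3, the kinase bound to the common gamma chain, was at 34.5 ± 1.9 against 14.2 ± 5.68 CPM (FDR 0.000304), and Stat3, the main transcription factor of IL-10 signalling, at 227 ± 18.6 against 148 ± 34.0 CPM (FDR 0.00702). Negative regulators rose at 5 and fell at 1 of 15 (median 0.16), near the share of calls over all genes. Socs3, which STAT3 induces and which blocks several cytokine receptors, was at 49.1 ± 7.85 against 10.1 ± 6.54 CPM (FDR 0.00572), and the phosphatase gene Ptpn1 rose by 0.87 (SE 0.11, FDR 3.93e-06).

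Response genes came in 3 of the lists. Of 12 genes of the macrophage response to IL-4 and STAT6, 5 rose, 1 fell and 6 were not called (median 0.54). The 5 include Chil3, a chitinase-like gene that neutrophils also make, at 17.8 ± 11.3 against 0.301 ± 0.601 CPM (FDR 0.00027), Cdh1, the epithelial E-cadherin gene, and Tgm2, a transglutaminase gene also made by other liver cells. Of 10 genes of the IL-10 and STAT3 response 7 rose and 1 fell (median 1), such as Il1rn, the interleukin 1 receptor antagonist, at 9.50 ± 3.50 against 2.15 ± 0.697 CPM (FDR 3.13e-05), and Cd163, a macrophage scavenger receptor, at 60.8 ± 13.3 against 20.2 ± 5.67 CPM (FDR 0.000291). Of 17 listed inflammatory genes that IL-10 is known to hold down, 5 were tested and all 5 rose (median 1.88). The chemokine gene Cxcl1 was at 47.6 ± 15.2 against 4.79 ± 2.03 CPM (FDR 0.000203) and Il1b at 6.71 ± 1.23 against 1.74 ± 0.653 CPM (FDR 0.000512). The neutrophil, macrophage and bile duct markers given above rose in the same comparison, and their part was not tested.

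**Figure D5:**
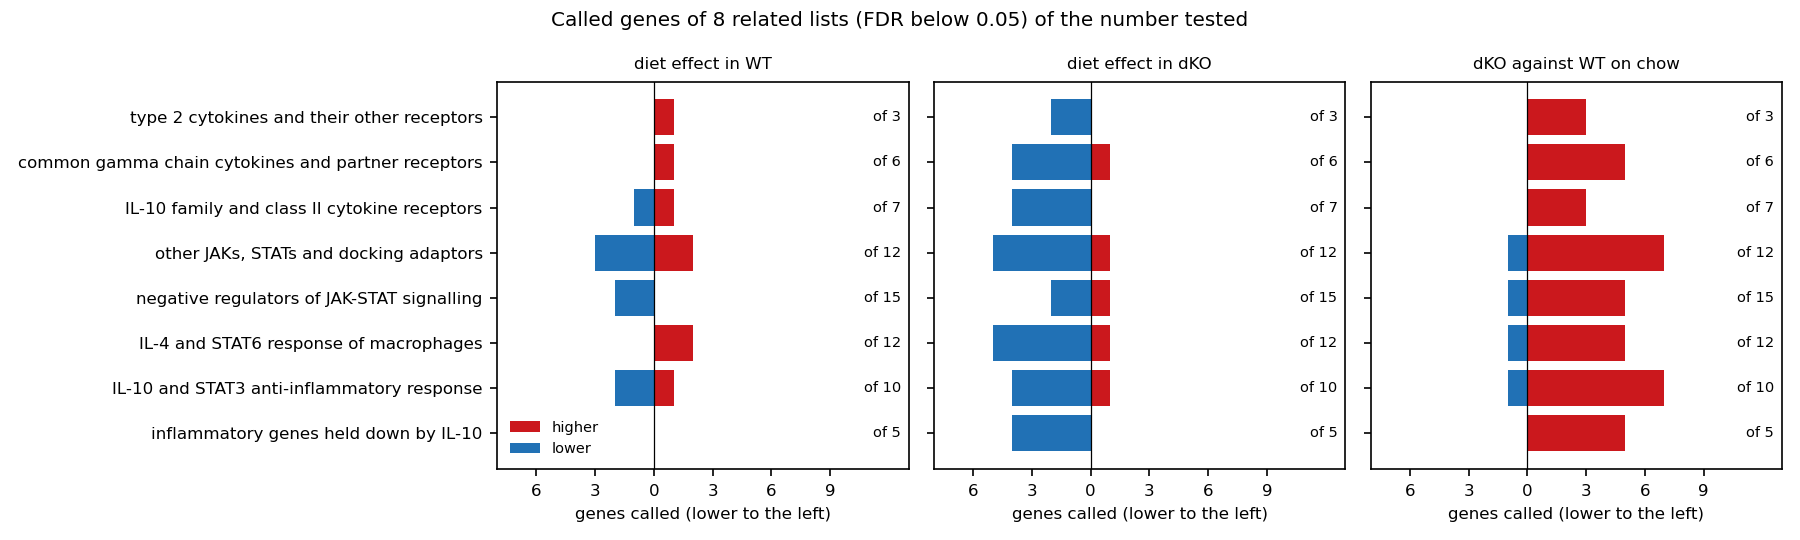
Number of genes called higher (right of 0) and lower (left of 0) in 8 lists of related genes in 3 comparisons, with the number tested at the right edge. In dKO against WT on chow 3 of 3 tested genes of type 2 cytokines (11 listed) and 5 of 5 tested inflammatory genes (17 listed) were higher. Of 15 tested negative regulators 5 were higher and 1 was lower there, and 24.4% of all tested genes were higher. In the diet effect in dKO 4 of 5 tested inflammatory genes were lower, beside 20.5% of all tested genes. Low genes that passed the filter through dKO_chow had to be higher in that group.

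In the diet effect in dKO, more genes fell than rose in each of the 8 lists, while 40% of all tested genes were called and 20.5% fell. Most of the tested genes fell in 4 of the lists, which had 3 to 7 tested genes each. Low genes could pass the filter through dKO_chow, the higher group here, so these counts are a description. Among type 2 cytokines and receptors 2 of 3 fell, among common gamma chain genes 4 of 6 fell and 1 rose, and among IL-10 family receptors 4 of 7 fell. Il2rb, the beta chain of the IL-2 and IL-15 receptors, was at 1.25 ± 0.454 against 4.51 ± 0.965 CPM (FDR 0.000151), while Il15ra, its partner for IL-15, rose by 0.41 (FDR 0.00685). JAKs, STATs and adaptors fell at 5 and rose at 1 of 12. Negative regulators fell at 2 and rose at 1 of 15, below the shares over all tested genes. The IL-4 and STAT6 response fell at 5 and rose at 1 of 12, with Chil3 at 1.13 ± 1.95 against 17.8 ± 11.3 CPM (FDR 0.000958) and Pparg higher by 0.91 (FDR 0.00409). The IL-10 and STAT3 response fell at 4 and rose at 1 of 10. Inflammatory genes fell at 4 of 5, with Il1b at 1.59 ± 1.18 against 6.71 ± 1.23 CPM (FDR 0.000241). In the same comparison all 10 Kupffer cell markers, all 8 leukocyte markers and all 7 tested neutrophil markers fell.

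In WT the calls of the diet effect went both ways in these lists. Type 2 genes rose at 1 of 3, Il17rb, and common gamma chain genes at 1 of 6, Il15. Of 7 IL-10 family receptors 1 rose and 1 fell. Over all tested genes 19.5% were called and 9.63% rose, so these few calls are a description. Il22ra1 fell in WT as in dKO, from 9.01 ± 2.98 to 3.59 ± 1.01 CPM (FDR 0.0124). The docking adaptor genes Irs1 and Irs2, which carry both insulin and IL-4 signals, fell by 0.98 (SE 0.115, FDR 1.11e-05) and 0.94 (SE 0.228, FDR 0.00626). Of 10 tested genes of the IL-10 and STAT3 response 1 rose and 2 fell. Il1rn rose by 1.63 (SE 0.335, FDR 0.00204). Bcl3 fell by 0.70 (SE 0.228, FDR 0.0364) and Nfil3 by 0.77 (SE 0.2, FDR 0.0109). Of the inflammatory genes 0 of 5 passed in edgeR. Kupffer cell and leukocyte markers passed at 0 of 10 and 0 of 8 there.

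On HFD, dKO against WT also gave calls in these lists. Irs1 rose by 0.82 (SE 0.114, FDR 4.2e-05), Il15ra by 0.68 (SE 0.118, FDR 0.000369) and Socs7, a SOCS box gene, by 0.52 (SE 0.0835, FDR 0.000156), and Il17rb, the receptor of IL-25, fell by 0.85 (SE 0.15, FDR 0.000423). Irs1, Il15ra and Socs7 were also higher in IL4KO against WT on HFD, by 0.55 (FDR 0.0223), 0.64 (FDR 0.00763) and 0.35 (FDR 0.0416). Between dKO and IL4KO on HFD, 0 genes of their lists were called, where 2.51% of all tested genes were. Socs3 was at 24.4 ± 31.0 against 4.41 ± 0.894 CPM (FDR 0.0146), with a wide spread in dKO_HFD.

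By profile over the 23 libraries, the tested genes nearest to each of 5 members were sought among 12297, as the root mean square distance between log2 CPM scaled to mean 0 and SD 1. Nearest to Il10ra were H2-Ab1 (0.32) and H2-Eb1 (0.34), MHC class II genes of antigen-presenting cells, and Gltp (0.35). H2-Ab1 had a mean of 87.2 CPM in dKO_chow and of 31.2 CPM in WT_chow. Nearest to Il10 were Scara3 (0.33), the sodium-glucose transporter gene Slc5a1 (0.34) and Cd24a (0.34), a surface gene of bile duct and immune cells. Scara3 had 22.1 CPM in dKO_chow, 9.41 CPM in dKO_HFD and 1.46 to 2.38 CPM in the other groups. Il4ra was nearest to Kcnab2 (0.44), Ptpre (0.45) and Spon1 (0.49), and Stat6 to Ptpn3 (0.45), Akt1 (0.47) and Ints7 (0.49). Tyk2 had no gene as near, with Gga1, Nelfa and Mst1 at 0.62 to 0.63. All these profiles share the same libraries, depth and scaling, and the distances are a description.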

How the data were processed

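Per the labels' protocols, libraries came from total RNA of perfused liver with a stranded mRNA kit. Per the submitters' processing notes, bcl2fastq 2.16, TopHat2 2.0.8, Partek and the mm10 build were used. The sources used here do not give the annotation, counting or strand settings. What the authors deposited was a table of estimated counts by gene symbol, 88.5% to 94.3% of them whole in each library, and a table of log2 values for 14078 genes, which entered 1 alternative only.

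The estimated counts were rounded and tested with edgeR 4.0.16 in R 4.3.3, with its filter by group, TMM factors and 1 robust quasi-likelihood fit of 6 group means over 23 libraries (17 residual degrees of freedom). The 12 comparisons were 9 pairs and 3 interactions, adjusted by Benjamini-Hochberg at 0.05. The pipeline was tested on simulated data. CPM use the same scaling, exon lengths come from GENCODE on GRCm38, and log2 CPM for profiles used a prior count of 2. Alternatives were RLE factors, no filter, a strict filter (1 CPM in every library of a group), DESeq2 1.42.0, a fit of the groups compared, limma 3.58.1 on the log2 values, thinning and leaving out libraries.

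Members, gene lists and markers were chosen with earlier results of these data known. Named beside the 10 members were up to 3 called genes per list and comparison, by fold, with a mean of 1 CPM or more in 1 group and groups that did not overlap, and the 3 nearest profiles. Names outside that rule (untested list genes, Il15ra and Pparg in the diet effect in dKO, Il17rb in that in WT, H2 genes' levels) were added after their values were seen.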

Additional observations from a re-analysis of the deposited data

Results flagged for a closer look

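Diet effects differed between genotypes in 3 members, by a test of the difference itself (edgeR interaction, in log2). Between dKO and WT the difference was -2.10 for Il2rg, -1.02 for Il10ra and -1.17 for Il10rb. Between dKO and IL4KO it was -2.14 for Il2rg, -1.43 for Il10ra and -1.14 for Il10rb, and these 3 calls were lost without IL4KO_HFD replicate 2, at -1.22 (FDR 0.119), -0.85 (FDR 0.15) and -0.80 (FDR 0.0616). The sums of Kupffer cell markers were 939 to 1191 CPM in dKO_chow and 316 to 739 CPM in dKO_HFD.

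Single libraries lay far from the others of their group in 3 of 43 groups of a member. In a group of 4, the lowest or highest value counted as far where its gap to the nearest was over 0.829 of the whole range, and chance alone marks about 1 group in 20. Il4ra was at 29.3 CPM in WT_chow replicate 4 and at 38.8 to 40.0 CPM in the other WT_chow libraries. In dKO_chow replicate 4, Tyk2 was at 28.7 CPM against 30.3 to 30.6 CPM in the others, and Stat6 at 82.4 CPM against 91.5 to 92.2 CPM.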

How the results depend on the processing

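Of 108 values of a member in a comparison, recomputed under each alternative, 3234 results kept their direction and side of the threshold or changed sign without passing in either fit (111 of them), 74 lost the call, 32 gained it and 1 reversed. The reversed value was Il10 in the difference of diet effects between dKO and IL4KO, 1.26 with the counts and -1.05 with the deposited log2 values (FDR 0.0398), where IL4KO_HFD held 0 counts.

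Outside fits with 1 library left out, the number of members called was 5 to 8 in place of 6 in the diet effect in dKO, 5 to 7 in place of 6 and 6 to 7 in place of 7 in dKO against WT and against IL4KO on chow, and 2 to 4 in place of 3 in the dKO and WT interaction. Other moves were as follows. With the deposited log2 values it was 0 in place of 1 in dKO against WT and against IL4KO on HFD, and 5 in place of 3 in the dKO and IL4KO interaction. In a fit of the groups compared it was 2 in the diet effect in WT, 1 in IL4KO against WT on chow and 0 in both HFD comparisons with dKO, where Il10 did not pass the filter. DESeq2 called 1 in IL4KO against WT on chow, and thinning left 0 in both HFD comparisons with dKO. Without dKO_HFD replicate 4 and IL4KO_HFD replicate 3 together, the diet effects in WT and in IL4KO had 2 each, IL4KO against WT on HFD had 1 and dKO against WT on HFD had 2. That fit kept IL4KO_HFD replicate 2, which stood apart in immune markers, so it is not a removal of both libraries that stood apart. With 1 library left out, counts ran from 3 to 8 in the diet effect in dKO, 0 to 1 in those in WT and IL4KO, 4 to 7 in dKO against WT and 5 to 7 against IL4KO on chow, 1 to 2 and 0 to 1 on HFD, and 2 to 4 and 0 to 5 in the interactions of dKO with WT and with IL4KO. They stayed at 0 in IL4KO against WT on chow and on HFD and in the interaction of IL4KO with WT. The cause of these changes was not tested.

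Over all genes, calls in the diet effect in IL4KO were 1170, but 528 in a fit of those groups and 236 to 2030 with 1 library left out. They were 2413 without both dKO_HFD replicate 4 and IL4KO_HFD replicate 3. IL4KO against WT on HFD had 389 calls, 95 in a fit of those groups and 185 to 631 with 1 left out. dKO against IL4KO on HFD had 323, but 589 with DESeq2, 4 in a fit of those groups, 200 after thinning, 1116 without both and 39 to 1241 with 1 left out. The interaction of IL4KO with WT had 6, against 68 with DESeq2, 21 in a fit of those groups, 11 with the log2 values, 18 without both and 3 to 10 with 1 left out. The interactions of dKO with WT and IL4KO had 3254 and 3144, and as few as 2130 without dKO_HFD replicate 2 and 1293 without IL4KO_HFD replicate 2. With the log2 values, the share of calls that were higher was 37.4% in place of 48.6% in the diet effect in dKO, 63.3% in place of 50.8% in dKO against IL4KO on chow, 54.5% in place of 37.8% on HFD, and 37.5% and 39.9% in place of 49.9% and 52% in the interactions of dKO with WT and IL4KO.

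No paired analysis was possible because the labels give the mice no shared replicate numbers. Depth limited Il4, which was not tested, and Il10 outside dKO_chow, where libraries held 0 to 21 counts. IL4KO_HFD had 3 mice, with totals of 7788330 to 8935353 counts. The 3 member calls in its interaction with dKO were lost without 1 of these mice, while the values kept their direction. That fit also has fewer mice in the group, so lost power and the influence of that library cannot be told apart. Counts per gene symbol hold no exons, so deletions and the reads shared with overlapping genes could not be examined.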
